A study of Mus musculus with 2 samples.

Results

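RNA was measured in the mandibular prominence of mouse embryos, the paired facial swelling that forms the lower jaw, and the genes described here are the Runx family of transcription factors with their partner and the genes of the bone-forming osteoblast lineage. The members were chosen by symbol: Runx1, Runx2, Runx3, Cbfb, Sp7, Alpl, Ibsp, Spp1, Dmp1 and Phex. All 10 were found among the 30723 gene symbols of the deposited tables, on 28 transcripts. The series holds 2 libraries of total RNA, 1 per group, each from 10 pooled embryos of a mixed CD1 background. In the mutant library the embryos were Kif3a f/f; Wnt1-Cre: the gene of the kinesin-2 motor subunit Kif3a, which builds primary cilia, was floxed and deleted by a Cre recombinase under Wnt1 control. The other library is labelled control, with no further genotype. Both are labelled E11.5, in days of gestation with noon of the plug day as 0.5, but the submitters' names for the tables give E11 for the mutant and E11.5 for the control, and separate sequencing runs. Genotype, sequencing run and a possible gap in stage are the same split here and cannot be told apart.

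RUNX proteins bind DNA through a conserved domain, and each needs the partner protein encoded by Cbfb, which does not touch DNA itself, for stable binding. Runx2 is required for osteoblasts to form, and Sp7, also called osterix, acts after it. The matrix and mineral genes Alpl, Ibsp, Spp1, Dmp1 and Phex are used later, as bone is laid down. Bone of the lower jaw derives from neural crest, the cells in which Wnt1-Cre acts, and at this stage its mesenchyme has not yet formed mineralised bone.

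Values are FPKM, fragment numbers divided by transcript length and library size, summed over the transcripts of a gene. The log2 ratio is log2((mutant FPKM + 1)/(control FPKM + 1)), which understates differences of low genes; the plain FPKM ratio is given beside it with a 95% interval from approximate fragment numbers. Intervals cover counting error only, and with 1 library per group no test between the genotypes exists. The libraries held roughly 24500000 fragments in the mutant and 24700000 in the control. Kif3a itself stood at 5.39 FPKM in the mutant library and 11.46 FPKM in the control library, a ratio of 0.471 (0.431 to 0.514). Wnt1-Cre spares the epithelium, muscle precursors, vessels and blood in the same tissue. All 10 markers of mandibular mesenchyme passed an FPKM of 1, with a summed level of 727 FPKM in the mutant and 814 FPKM in the control. Blood and muscle markers differed much more: the 9 erythroid and megakaryocyte genes summed to 5293 FPKM in the mutant and 20299 FPKM in the control, and the 5 muscle genes to 3.66 FPKM in the mutant and 21.1 FPKM in the control. The 7 endothelial genes summed to 39.9 FPKM in the mutant and 59.7 FPKM in the control, and the 8 epithelial genes to 144 FPKM in the mutant and 137 FPKM in the control. Single epithelial genes differed in both directions, and 3 of the 8 had a log2 ratio below 0. Krt15 had a ratio of 0.420 (0.364 to 0.482) and Krt18 had 1.41 (1.28 to 1.55). In RNA of whole tissue, fewer cells of a type and less RNA per cell cannot be told apart.

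Cbfb, Runx2, Alpl, Runx1 and Sp7 were readily measured, while Runx3 and most of the later bone genes were near or at 0 in both libraries. Of the 10 members, 5 reached a mean FPKM of 1 over the pair of libraries: Runx1, Runx2, Cbfb, Sp7 and Alpl. The other 5, Runx3, Ibsp, Spp1, Dmp1 and Phex, were below it. In the mutant library the order of levels was Cbfb, Runx2, Alpl, Runx1, Sp7, Spp1, Phex and Runx3, with Dmp1 and Ibsp listed at 0. In the control library it was Cbfb, Runx2, Alpl, Sp7, Runx1, Spp1, Runx3, Phex and Dmp1, with Ibsp listed at 0. Counting intervals of neighbours overlapped for Runx2 and Alpl, Sp7 and Spp1, and Phex and Runx3 in the mutant, and for Alpl and Sp7, Sp7 and Runx1, and Runx3 and Phex in the control. Other neighbours with intervals were separated by more than their counting error.

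At a log2 ratio of at most -1, 0 of the 5 members over that level were 2-fold lower in the mutant, against 1.36% of the 12259 genes that reached a mean FPKM of 1. At a log2 ratio of at least 1, 0 of these 5 were 2-fold higher, against 0.767% of those genes. That was 167 genes lower and 94 higher, a split that became 129 and 132 after centring on the median gene. The median log2 ratio of the 5 members over that level was -0.06, and that of all 12259 genes was -0.13. The lower count can say nothing of the other 5 members. With a pseudocount of 1, a gene under 1 FPKM in the control cannot reach a log2 ratio of -1. A log2 ratio of 1 stayed possible, and 0 of all 10 members reached it, beside 106 of all 30723 genes. In plain FPKM the ratio was 0.454 (0.299 to 0.677) for Sp7, 0.181 (0.0171 to 0.848) for Runx3 and 2.77 (1.15 to 7.64) for Phex. These point values are past 2-fold, but each interval includes differences under 2-fold. Runx3 rests on about 1.82 fragments in the mutant. The share of all genes past 2-fold in plain FPKM was not counted. Of the 5 members over a mean FPKM of 1, 4 had a lower FPKM in the mutant library, beside 67.9% of all genes over it. Over all 10 members, which include those near 0, 7 were lower and 2 higher. The same share over all 30723 genes was not counted, so no lean of the members can be read from this. Among those 7, Dmp1 rests on less than 1 fragment.

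**Figure D1:**
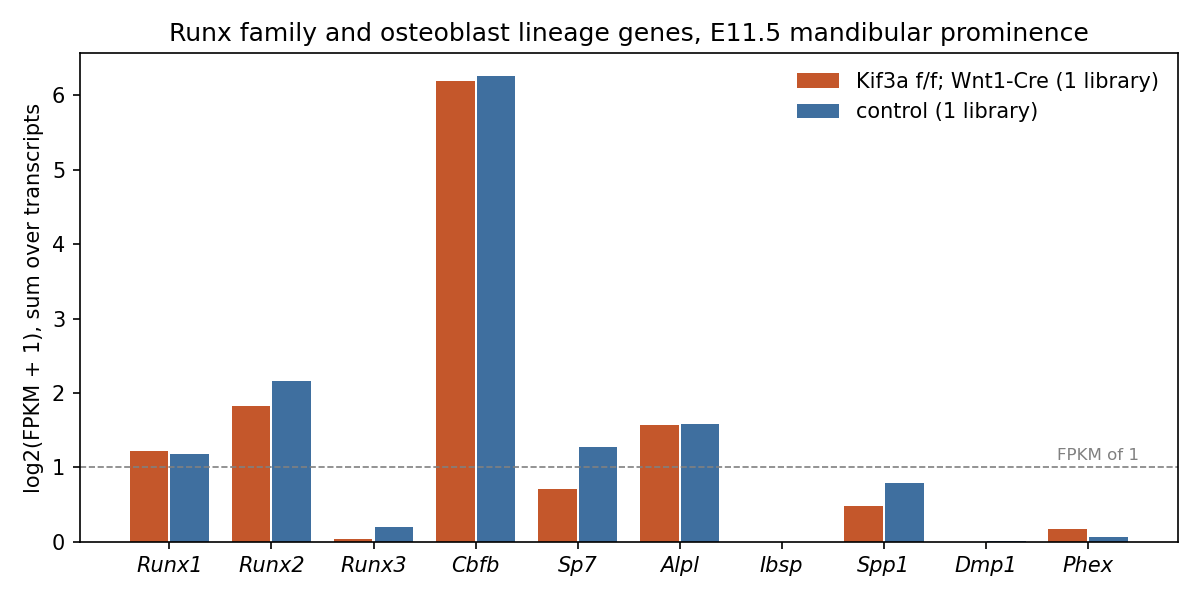
Level of each member as log2(FPKM + 1) in the Kif3a f/f; Wnt1-Cre library (left bar) and the control library (right bar), 1 library per group; the dashed line is an FPKM of 1. Cbfb stands far above all others in both libraries, and Ibsp shows no bar.

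Runx2, the osteoblast master regulator, lies on the minus strand of chromosome 17 from 44604001 to 44814797. It stood at 2.55 FPKM in the mutant library (2.30 to 2.81) and 3.48 FPKM in the control library (3.17 to 3.81). The FPKM ratio of mutant over control was 0.732 (0.639 to 0.838), on about 395 and 474 fragments, and the log2 ratio was -0.34. The intervals of the libraries did not overlap, but 20.9% of all genes had a lower log2 ratio than Runx2. Long transcripts were in general higher in the mutant library, and the median log2 ratio was 0.06 among genes whose main transcript had 5000 to 8000 bases. With the trend on transcript length removed, Runx2, whose most abundant transcript has 6463 bases, had -0.44, and 5.24% of genes were lower.

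Runx1, best known for its role in blood formation, lies on the minus strand of chromosome 16 from 92601466 to 92826066. It stood at 1.34 FPKM in the mutant and 1.27 FPKM in the control, a ratio of 1.05 (0.876 to 1.27) and a log2 ratio of 0.04. Runx1 thus showed no difference beyond counting error, beside blood markers that were 3.84-fold lower in the mutant by their sum. All 9 of those markers reached a mean FPKM of 1, Itga2b and Gp9 through the control library alone, and lay below the median gene. Their part in the Runx1 value was not tested. Runx3, known from sensory neurons, cartilage and lymphocytes, lies on the plus strand of chromosome 4 from 135120645 to 135177990. It stood at 0.0267 FPKM in the mutant and 0.147 FPKM in the control, on about 1.82 and 12.5 fragments. Its ratio was 0.181 with a wide interval of 0.0171 to 0.848. The 9 sensory neuron markers summed to 17.9 FPKM in the mutant and 19.1 FPKM in the control, with no marker at 0 in both libraries. Isl1, a homeobox gene and the most abundant of them in the mutant, had 9.62 FPKM in the mutant and 5.53 FPKM in the control, while 3 of the 4 markers over a mean FPKM of 1 lay below the median gene, Ntrk2 and Nefl having reached it through the control alone. Nefm, a neurofilament gene, had 0.268 FPKM in the mutant and 1.40 FPKM in the control. Their part in the Runx3 value was not tested.

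Runx2 made up 65.1% of the summed Runx FPKM in the mutant library and 71.1% in the control library. Runx1 made up 34.2% in the mutant and 25.9% in the control, and Runx3 0.684% in the mutant and 3.01% in the control. Cbfb, on the plus strand of chromosome 8 from 105170674 to 105217988, is the shared partner of all 3. It stood at 72.1 FPKM in the mutant and 75.4 FPKM in the control, a ratio of 0.957 (0.922 to 0.993) and a log2 ratio of -0.06, above the median gene. This level was higher than that of 92.7% of genes in the mutant and 91.7% in the control. Cbfb was 18.4 times the summed FPKM of the Runx genes in the mutant library and 15.4 times in the control library. The RNA of the partner was thus far above that of the Runx genes in both libraries.

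Each Runx gene is transcribed from a distal start, called P1, and a proximal start, called P2, which give proteins with different first residues. The distal starts share a short sequence. In the RefSeq promoter windows on GRCm38.p6, which run from 250 bases before to 50 bases after a start, the longest run common to the P1 windows of all 3 Runx genes has 18 bases and holds 2 copies of the hexamer ACCACA, the core that RUNX proteins bind. The run is shown in capitals in 30 bases of each window, read 5′ to 3′ on the gene's strand, because all 3 windows hold it.
Runx1 P1, chr16:92826025-92826054, minus strand: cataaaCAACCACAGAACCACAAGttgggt
Runx2 P1, chr17:44814583-44814612, minus strand: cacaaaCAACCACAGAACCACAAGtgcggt
Runx3 P1, chr4:135120503-135120532, plus strand: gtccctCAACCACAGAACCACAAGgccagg
Counting the start as base 1 and the base before it as -1, the run begins at base 27 in Runx1, at base 22 in Runx2 and at base -136 in Runx3. Of 32851 promoter windows of the mouse genome, 4 hold all 18 bases on either strand. They are the 3 P1 windows and that of Gm16225, which lies on the opposite strand and overlaps the Runx3 window. The P1 windows hold the run by the way it was picked, so this count is a description only. A single ACCACA on either strand is common and was found in 16.8% of windows. The P2 windows of Runx1 and Runx3 hold none, and no P2 window of Runx2 was used here. A match describes the letters of the window and is not a measured binding site.

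By summed transcripts, the proximal start carried most of the Runx1 and Runx2 RNA in both libraries. For Runx2 the P2 transcripts summed to 2.18 FPKM in the mutant and 3.24 FPKM in the control, a ratio of 0.673 (0.583 to 0.777). The P1 transcripts summed to 0.365 FPKM in the mutant and 0.239 FPKM in the control, a ratio of 1.52 (0.961 to 2.46). The lower Runx2 value of the mutant library was therefore found at P2 and not at P1, and the intervals of the 2 ratios did not overlap. P1 held 13.7% of the Runx2 fragments in the mutant (10.5 to 17.5) and 6.42% in the control (4.38 to 9.01), with exact Clopper-Pearson intervals. For Runx1 the P2 transcripts summed to 1.34 FPKM in the mutant and 1.15 FPKM in the control. Its P1 transcripts summed to 2.79e-06 FPKM in the mutant and 0.115 FPKM in the control, about 16.6 fragments in the control. P1 held up to 1.51% of Runx1 fragments in the mutant by the upper bound of its interval, and 7.45% in the control (4.37 to 11.7). Runx1 and Runx2 thus differed in opposite directions in the share of P1. For Runx3 nearly all of the small signal was listed at P1. In the control this was on about 12.5 fragments, with a P1 share interval of 74.4 to 100%. In the mutant it was on about 1.82 fragments (13.2 to 100%), too few to give a share. Cufflinks divides reads of shared exons between transcripts by a model, so values by start are estimates, and their intervals do not include the error of that division.

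Single transcripts showed how far such estimates can move. Of the 28 transcripts of the members, 10 were under 0.01 FPKM in both libraries. Within P2 of Runx2, the transcript of 6463 bases stood at 1.69 FPKM in the mutant and 1.75 FPKM in the control, a ratio of 0.966 (0.813 to 1.15). The transcript of 5259 bases, which starts at 44735618, stood at 0.492 FPKM in the mutant and 1.49 FPKM in the control, a ratio of 0.330 (0.245 to 0.440). The gap at this 1 estimated transcript exceeded that of the whole gene, and with the most abundant transcript alone Runx2 had a log2 ratio of -0.03, above the median gene. Within P1 the libraries used different transcripts: that of 5898 bases had 0.363 FPKM in the mutant and 1.22e-05 FPKM in the control, and that of 5479 bases had 0.00169 FPKM in the mutant and 0.239 FPKM in the control. Within P2 of Runx1 the transcript of 6928 bases had 0.442 FPKM in the mutant and 0.000249 FPKM in the control, and that of 7120 bases had 0.818 FPKM in the mutant and 1.15 FPKM in the control. The error of this division was not measured, for single transcripts or for the sums by start.

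Of the Cbfb transcripts, that of 2913 bases led with 48.5 FPKM in the mutant and 47.5 FPKM in the control. The transcript of 2882 bases had 21.4 FPKM in the mutant and 26.8 FPKM in the control, a ratio of 0.798 (0.747 to 0.852). The smallest of the measured ones, of 2786 bases, had 2.33 FPKM in the mutant and 1.14 FPKM in the control, a ratio of 2.04 (1.56 to 2.69). The summed gene differed by far less than these parts.

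**Figure D2:**
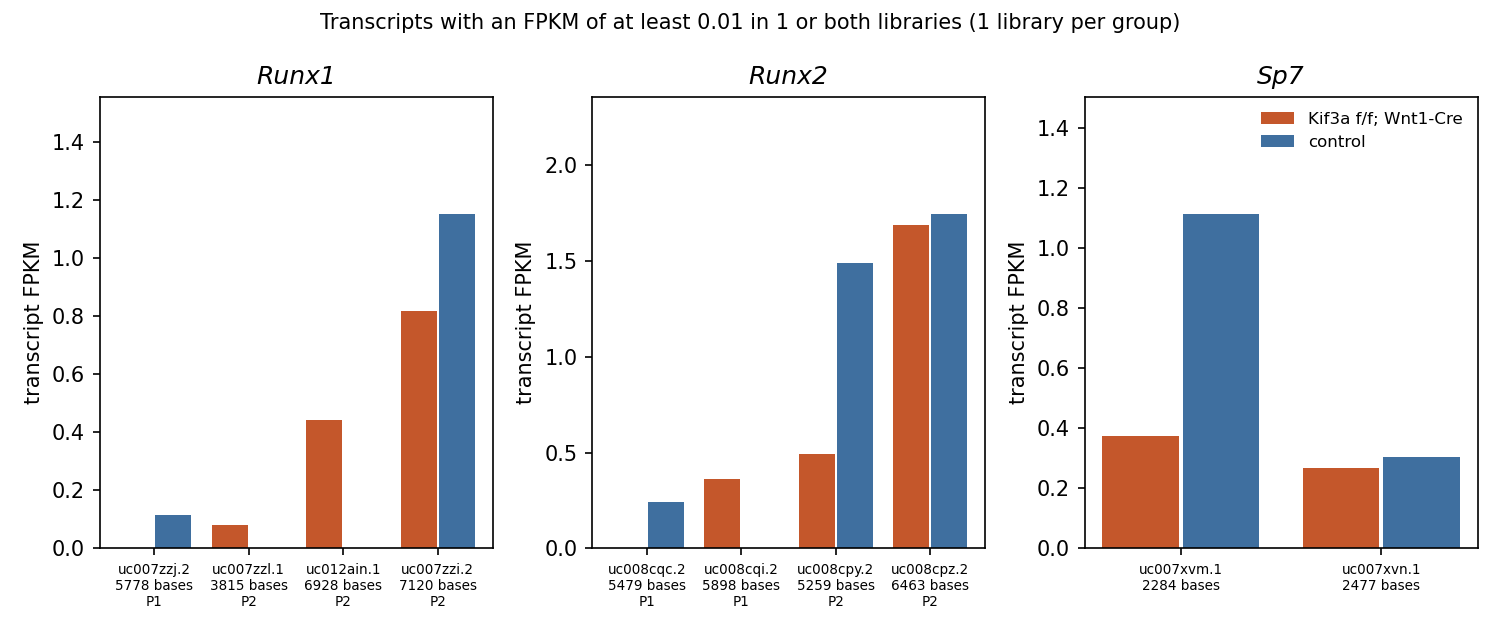
FPKM of each Runx1, Runx2 and Sp7 transcript with at least 0.01 FPKM in 1 or both libraries, mutant bar left of control bar, with its length and, for Runx genes, its start (P1 or P2). The Runx2 transcript of 5259 bases and the Sp7 transcript of 2284 bases show the large gaps, and several transcripts have a bar in 1 library only.

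Sp7, the zinc finger factor that acts downstream of Runx2, lies on the minus strand of chromosome 15 from 102357177 to 102366968. It stood at 0.642 FPKM in the mutant library and 1.42 FPKM in the control library, on about 37.3 and 79.9 fragments. The mutant was 2.20-fold lower (1.48 to 3.35), and the gene reached a mean FPKM of 1 through the control library alone. The log2 ratio was -0.56 with a pseudocount of 1 and -1.03 with a pseudocount of 0.1, and 6.35% of all genes had a lower value than -0.56. Its transcript of 2284 bases had 0.374 FPKM in the mutant and 1.11 FPKM in the control, a ratio of 0.336 (0.195 to 0.559). The transcript of 2477 bases, with a start further upstream, had 0.268 FPKM in the mutant and 0.302 FPKM in the control, a ratio of 0.886 (0.425 to 1.83). In the mutant library Sp7 was 0.252 of the Runx2 level in FPKM, and in the control library 0.407.

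Alpl encodes tissue-nonspecific alkaline phosphatase, the enzyme that frees phosphate for mineral, and is an early osteoblast marker. On the minus strand of chromosome 4 from 137741732 to 137796377, it stood at 1.98 FPKM in the mutant and 1.99 FPKM in the control, a ratio of 0.994 (0.775 to 1.28). No difference was detectable for Alpl at this depth, on about 136 and 126 fragments. Its interval overlapped that of the Runx2 ratio and not that of the Sp7 ratio.

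**Figure D3:**
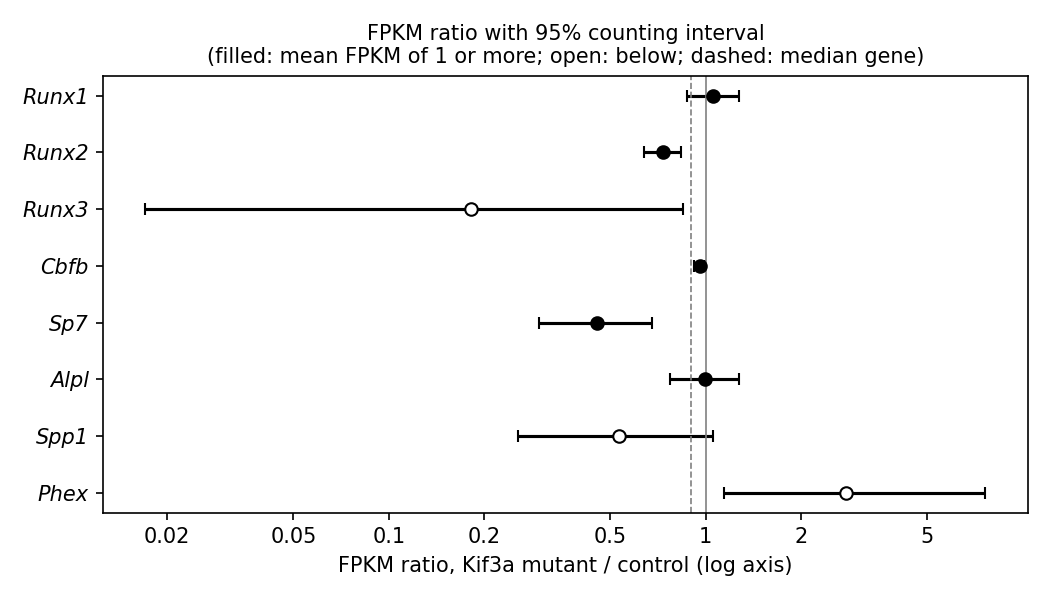
FPKM ratio of mutant over control for the 8 members with at least 1 fragment in both libraries, on a log axis with 95% counting intervals; filled points reach a mean FPKM of 1, and the dashed line is the median gene at 0.902. The intervals of Runx2, Runx3, Sp7 and Cbfb lie below 1 and that of Phex above it, and only those of Runx2, Runx3 and Sp7 lie wholly below the median gene.

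Spp1, Ibsp and Dmp1 encode secreted acidic phosphoproteins of bone matrix and lie on the plus strand of chromosome 5, between 104202617 and 104441053. Spp1, or osteopontin, alone of them reached 3 fragments in either library. It stood at 0.391 FPKM in the mutant and 0.736 FPKM in the control, on about 14.1 and 25.4 fragments, a ratio of 0.532 (0.257 to 1.06). That interval includes 1. Macrophages and osteoclasts also make Spp1, and the summed levels of their markers were lower in the mutant library. The 13 macrophage genes summed to 15.3 FPKM in the mutant and 27.6 FPKM in the control, and 7 of the 8 over a mean FPKM of 1 lay below the median gene. Of these, Lyz2, Csf1r and Fcgr3 reached that mean through the control library alone. C1qb had a ratio of 0.909 (0.685 to 1.21), and Ptprc, under the filter, had 0.324 FPKM in the mutant and 0.270 FPKM in the control. The 6 osteoclast genes summed to 8.45 FPKM in the mutant and 18.2 FPKM in the control, and both that reached a mean FPKM of 1, Acp5 and Ctsk, lay below the median gene, while Calcr had 0.0863 FPKM in the mutant and 0.0853 FPKM in the control. No marker of either list was at 0 in both libraries. Their part in the Spp1 value was not tested.

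The window of the main Spp1 start holds 1 ACCACA, at base -128, and this is shown in capitals in the 250 bases before the start, because Spp1 is a textbook RUNX2 target in osteoblasts.
Spp1, chr5:104434861-104435110, plus strand: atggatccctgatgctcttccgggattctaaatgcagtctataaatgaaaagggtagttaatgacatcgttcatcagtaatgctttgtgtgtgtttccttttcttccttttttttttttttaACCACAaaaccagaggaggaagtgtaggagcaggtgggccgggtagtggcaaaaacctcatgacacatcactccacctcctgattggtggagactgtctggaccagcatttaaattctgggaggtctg
Of 14 windows for 9 members, 5 held ACCACA on either strand: the 3 P1 windows shown above for that sequence, this one and 1 of Dmp1. Over all 32851 windows the share was 16.8%.

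Ibsp, bone sialoprotein, was listed at 0 in both libraries. At its length 3 fragments would give 0.0558 FPKM in the mutant and 0.0608 FPKM in the control, and a level below this is not detectable here. Dmp1, a gene of osteocytes and tooth-forming cells, was listed at 0 in the mutant and stood at 0.0103 FPKM in the control, less than 1 fragment. No ratio can be given for either. Phex, an endopeptidase gene of osteocytes whose loss causes phosphate wasting, lies on the minus strand of chromosome X from 157162075 to 157415286. It went the other way, at 0.128 FPKM in the mutant and 0.0463 FPKM in the control, on about 22.7 and 7 fragments, a ratio of 2.77 (1.15 to 7.64). Phex has a transcript of 6265 bases, a length at which genes were in general somewhat higher in the mutant library, and no value with the length trend removed was made for a gene under the filter.

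The genes around the Runx factors were read from lists that are not members. Of 16 genes for proteins that bind RUNX factors, all passed an FPKM of 1. None was 2-fold lower or higher, 8 lay below the median gene and 8 above it, and their median log2 ratio was -0.16. With the length trend removed, 12 lay below 0, the level of the fitted trend. The corepressor gene Aes, the most abundant, had 107 FPKM in the mutant and 153 FPKM in the control, a log2 ratio of -0.51. The acetyltransferase gene Ep300 (log2 ratio 0.58) and the corepressor gene Tle2 (0.55) were higher. With the length trend removed, Ep300 had 0.33.

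Among 16 factors and signals that act before or beside Runx2 in jaw mesenchyme, 15 reached a mean FPKM of 1. Again 0 were 2-fold lower or higher, 8 lay below the median gene and 7 above it, and the median log2 ratio was -0.14. Twist2, a repressor of RUNX2 activity, had 33.0 FPKM in the mutant and 55.4 FPKM in the control, a ratio of 0.596 (0.553 to 0.641) and a log2 ratio of -0.73. Bmp2, an osteogenic ligand, had 0.556 FPKM in the mutant and 1.47 FPKM in the control, a log2 ratio of -0.67. Lef1, a transcription factor of the Wnt pathway, had 19.3 FPKM in the mutant and 26.2 FPKM in the control, a log2 ratio of -0.42. Twist1, the most abundant by the mean of both libraries and also a repressor of RUNX2, stood at 137 FPKM in the mutant and 181 FPKM in the control. Bmp2 reached the mean of 1 through the control library alone, and the more abundant ligands of its family were not lower: Bmp4 had 15.5 FPKM in both libraries, and Bmp7 had 13.8 FPKM in the mutant and 12.9 FPKM in the control. Among homeobox genes of jaw mesenchyme, Msx1 had 51.7 FPKM in the mutant and 39.97 FPKM in the control, and Msx2 had 34.7 FPKM in the mutant and 25.7 FPKM in the control, both higher beyond counting error. Twist1 and Twist2 were thus lower in the mutant library, while the ligands went different ways. Of the corepressor genes named above, Aes was lower and Tle2 higher, so repressors did not all go the same way. With the length trend removed, 6 of the 15 lay below the median gene.

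Of these 3 lists, the matrix and secreted genes of bone had the lowest median. Of 19 such genes 9 passed an FPKM of 1, 7 of these lay below the median gene, 1 was 2-fold lower and 0 were 2-fold higher, and their median log2 ratio was -0.74, or -0.61 with the length trend removed. Postn, which marks periosteum and other fibrous tissue, stood at 7.69 FPKM in the mutant and 26.3 FPKM in the control, a log2 ratio of -1.65. Col1a1, a chain of type I collagen, had 13.9 FPKM in the mutant and 27.1 FPKM in the control (log2 ratio -0.91). Col1a2, the other chain and the most abundant of the list, had 58.3 FPKM in the mutant and 97.8 FPKM in the control. Ank, a pyrophosphate transporter, had 2.23 FPKM in the mutant and 4.81 FPKM in the control (-0.85). These genes are also made by fibroblasts of connective tissue, which this measurement cannot set apart. Of the genes more closely tied to mature bone, Bglap2, Mepe and Dspp were listed at 0 in both libraries. Bglap, osteocalcin, was listed at 0.101 FPKM in the mutant and 0 in the control. Ifitm5, under the filter, had 0.873 FPKM in the mutant and 0.590 FPKM in the control, a ratio of 1.48 (0.657 to 3.49). Enpp1 passed through the mutant library alone, with 1.32 FPKM there and 0.818 FPKM in the control, a ratio of 1.62 (1.19 to 2.22). The 8 cartilage genes summed to 135 FPKM in the mutant and 126 FPKM in the control. Of 6 over a mean FPKM of 1, 1 lay below the median gene, or 2 with the length trend removed, and the median log2 ratio was 0.12. Col11a1 (log2 ratio 0.54), Sox5 (0.30) and Col2a1 (0.09) were above 0, and Sox9, the main regulator of cartilage, was at -0.19. With the length trend removed, Col11a1 had 0.38, Sox5 0.16, Col2a1 0.08 and Sox9 -0.14. The difference between the cartilage and the bone lists was not tested.

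**Figure D4:**
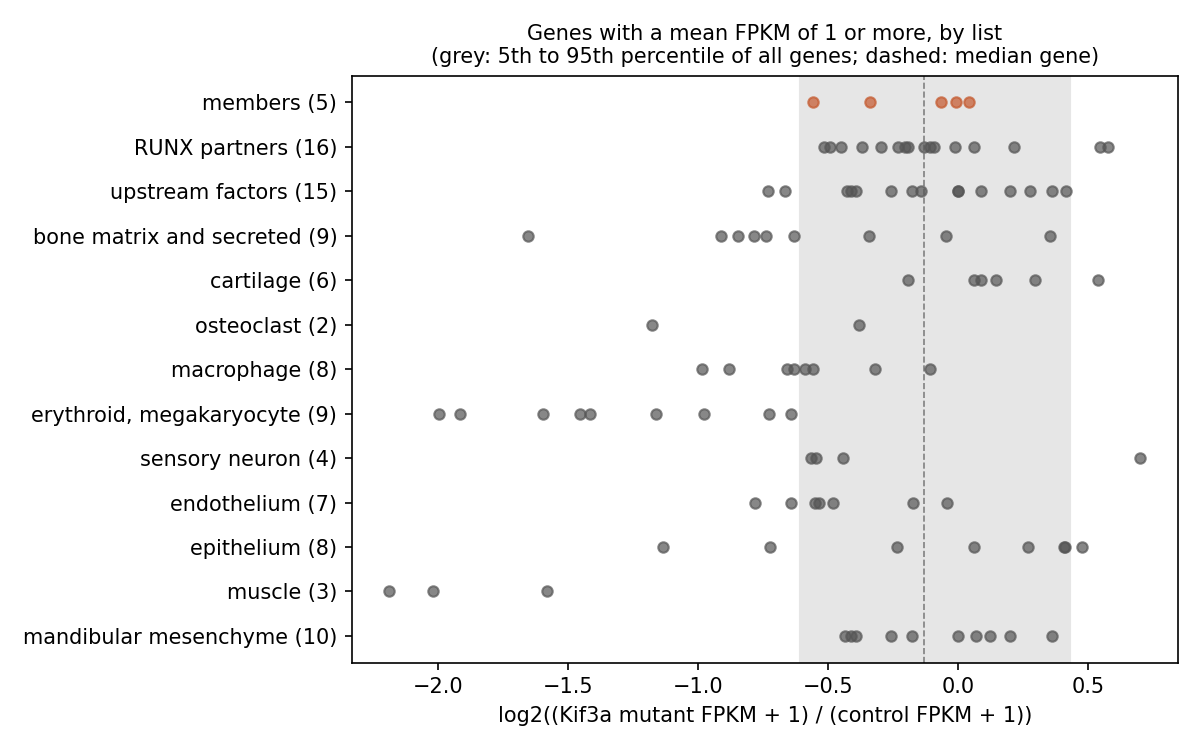
Log2 ratio of mutant over control for each gene that reached a mean FPKM of 1 in each list, 1 point per gene, with the number of genes in brackets. All 5 members over that level lie within the 5th to 95th percentile of all genes (-0.61 to 0.43, grey), while 6 of 9 bone matrix and secreted genes lie to its left. The pseudocount of 1 understates differences of low genes. Sp7, within the range, had a plain FPKM ratio of 0.454, and Col1a1, left of it, had 0.515.

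The genes nearest to Runx2 in level over both libraries, by Euclidean distance of log2(FPKM + 1) among 10793 genes with established names, were Emid1, Flnc and Slc26a6, with distances of 0.02, 0.03 and 0.03. Emid1 stood at 2.55 FPKM in the mutant and 3.42 FPKM in the control. Those nearest to Cbfb were Zfp664, Myh10 and Igf2bp3, with distances of 0.01, 0.02 and 0.03. With only 2 libraries such likeness says that both values are close and no more.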

How the data were processed

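Per the file headers, the authors deposited 1 table per library with a locus, a length, a coverage signal and an FPKM value per transcript; the tables' names give Cufflinks. The Cufflinks version, aligner and strandedness are not given in the sources used. The build mm9 is named in the submitters' processing notes, but 22 of the 28 member transcripts share a start or end with GENCODE M21 on GRCm38, so coordinates, 1-based, are given on GRCm38. In 65 lines per table displaced columns lost the FPKM, and these were left out. FPKM was summed per symbol, and genes reaching a mean FPKM of 1 were compared. Fragments were approximated as coverage times length over the median yield of single low transcripts, 153 bases in the mutant and 156 in the control. Ratio intervals are exact Clopper-Pearson, and level intervals exact Poisson. The length trend is a lowess fit (statsmodels 0.14.6, fraction 0.3), tested on simulated data. Of the 3 bone-related lists and the cartilage list the 3 largest log2 ratios and the most abundant gene were named; other marker lists are given by sums and counts, with some of their genes. A gene of the upstream list is not reported here and was left out of its counts. Bglap, Bglap2, Mepe, Dspp, Ifitm5, Enpp1, Gm16225, Bmp4, Bmp7, Msx1, Msx2, Nefm, Csf1r, Fcgr3, Ptprc, Calcr, Itga2b and Gp9 were named after their values or matches were seen. Spi1 was read under its older symbol Sfpi1. Starts within 5000 bases form 1 class, the most upstream being P1. The members and lists were chosen with earlier results of these data known.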

Additional observations from a re-analysis of the deposited data

How the results depend on the processing

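Values were recomputed with another pseudocount (0.1 or 5), without the filter or with a mean FPKM of at least 5, after centring or upper-quartile scaling, after TPM-like scaling of all transcripts or of those of 200 bases and longer, without the length trend, from the most abundant transcript alone, and from OK estimates alone. Of the members over the filter, 1 (Sp7) was 2-fold lower with a pseudocount of 0.1. Members below the median gene numbered 2 (Runx2 and Sp7), against 7 of 10 with no filter, 0 of 1 at a mean FPKM of 5, 0 of 3 with the most abundant transcript alone, 3 of 4 with TPM-like scaling, where Sp7 did not pass the filter, and 3 of 5 with the length trend removed, where Runx1 was added. Over all genes, 167 were 2-fold lower and 94 higher; the counts were 312 and 179 with a pseudocount of 0.1, 56 and 36 with 5, 88 and 54 at a mean FPKM of 5, 68 and 472 with TPM-like scaling, and 97 lower without short transcripts and 109 lower and 126 higher with the length trend removed. Under TPM-like scaling the median gene stood at 0.39 and Runx2 at 0.10, 0.29 below that median. Without the filter the median gene stood at 0, against -0.13 with it. The 7 of 10 below it, and the side of Cbfb and Alpl there, thus rest on another reference. Relative to the median gene, Runx2 was lower under each setting that kept it over the filter except the most abundant transcript alone, Sp7 and Cbfb kept their side wherever they passed except Cbfb without the filter, Runx1 changed side with TPM-like scaling and with the length trend removed, and Alpl with TPM-like scaling and without the filter. The log2 ratio of Runx2 ranged from -0.44 to 0.10 and that of Sp7 from -1.03 to -0.19; the cause was not tested. No paired analysis was possible because each group has 1 library. Depth limits Runx3, Spp1, Phex, Dmp1 and Ibsp, which rest on about 25 fragments or fewer.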
